A study of Mus musculus with 20 samples.

Results

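Toll-like receptors are sensors of microbial and damage-associated molecules, and the 10 genes described here are the receptors Tlr1, Tlr2, Tlr3, Tlr4, Tlr5, Tlr7, Tlr8 and Tlr9, the co-receptor Cd14 and the adaptor Myd88. They were taken by gene symbol from the liver count table, where each symbol matched 1 of the 48440 genes. Of the 10, 8 were among the 16071 genes with enough counts to be tested, and Tlr8 and Tlr9 were not. Liver RNA was sequenced from 20 female wild-type C57BL/6 mice (C57BL/6J in the study's methods) in 4 groups of 5. Their age is given as 8 weeks, and by the study's methods the tissues were collected after 5 weeks of treatment. All mice drank for 5 weeks either corticosterone (CORT, the main glucocorticoid of mice) at 100 µg per ml or its ethanol vehicle, and all received 5 mg per kg of an antibody into the peritoneum semiweekly. The antibody was either a monoclonal one that neutralizes acyl coenzyme A binding protein (αACBP) or an isotype control. The 4 groups are Isotype + Vehicle and αACBP + Vehicle without CORT, and Isotype + CORT and αACBP + CORT with it, and no mouse went without an injected antibody. Each sample is whole liver, in which fewer cells of a type and less RNA per cell cannot be told apart.

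The receptors of the cell surface, Tlr1, Tlr2, Tlr4 and Tlr5, bind lipoproteins, lipopolysaccharide and flagellin, and Tlr1 works as a partner of Tlr2. Tlr3, Tlr7, Tlr8 and Tlr9 sit in endosomes and bind nucleic acids. Cd14 hands lipopolysaccharide to the receptor complex of Tlr4, and Myd88 links all the receptors named here except Tlr3 to kinases that activate NF-κB. In liver, resident macrophages (Kupffer cells) are a well-known site of these receptors, and hepatocytes, endothelial cells and stellate cells carry some of them.

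Of the members, Tlr1 was the only 1 past both limits in any of the 6 comparisons. The limits were 0.05 for the adjusted p of edgeR and 1 for the size of the log2 fold change. Tlr1 fell with CORT under isotype, to 0.313 of its level in Isotype + Vehicle. In that comparison 1 of 8 tested members was called, against 1.94% of all 16071 genes. At an unadjusted p of edgeR under 0.05 there were 2 of 8, Tlr1 and Myd88, beside 15.6% of all genes. Under CORT, Tlr1 lay higher with αACBP than with isotype in every liver, by 2.11-fold, but missed the adjusted limit. In 3.22% of all genes the groups did not overlap there. Tlr1 was the only 1 of the 8 members at an unadjusted p of edgeR under 0.05, beside 12.5% of all genes. Myd88 and Tlr3, with enough counts for narrow intervals, did not pass the limits, and the intervals of Tlr2, Tlr4, Tlr5 and Tlr7 were wide enough to hold changes beyond 2-fold in either direction.

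The sequence of 3 promoters is shown, those of the member that passed the limits and of the most abundant member. RefSeq windows of 300 bases (250 before and 50 after the start) were on hand for 7 members in 8 windows, in the build GRCm38.p6, and Tlr4, Tlr7 and Cd14 had no entry. Capitals mark matches on either strand to 4 motifs. The first, GAGGAA, is the core of PU.1 type sites, and GAAANNGAA is of the IRF type. The motif AGAACA is part of glucocorticoid receptor sites, and TATAAA is a core promoter element. Where 2 matches overlap they appear as 1 run of capitals.
Tlr1 promoter, chr5:64933509-64933808, minus strand: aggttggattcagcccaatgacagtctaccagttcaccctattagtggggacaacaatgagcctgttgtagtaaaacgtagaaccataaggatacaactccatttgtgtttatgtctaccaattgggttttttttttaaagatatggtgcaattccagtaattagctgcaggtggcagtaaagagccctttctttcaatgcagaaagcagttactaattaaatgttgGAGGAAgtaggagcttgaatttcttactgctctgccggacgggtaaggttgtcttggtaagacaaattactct
Tlr1 promoter, chr5:64932650-64932949, minus strand: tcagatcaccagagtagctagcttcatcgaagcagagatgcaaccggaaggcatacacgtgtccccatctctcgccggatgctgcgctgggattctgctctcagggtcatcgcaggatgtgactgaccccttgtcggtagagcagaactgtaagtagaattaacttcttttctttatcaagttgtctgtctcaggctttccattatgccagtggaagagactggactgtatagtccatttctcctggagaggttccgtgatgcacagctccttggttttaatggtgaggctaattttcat
Myd88 promoter, chr9:119339969-119340268, minus strand: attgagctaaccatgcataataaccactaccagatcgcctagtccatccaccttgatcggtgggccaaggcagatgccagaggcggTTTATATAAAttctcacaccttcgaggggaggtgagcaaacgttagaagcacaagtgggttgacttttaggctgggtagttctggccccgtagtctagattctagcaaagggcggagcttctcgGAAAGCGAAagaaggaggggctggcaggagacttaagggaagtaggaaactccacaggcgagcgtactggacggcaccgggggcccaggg
The upstream window of Tlr1 held GAGGAA on the plus strand of the window, and the downstream window held none of the 4 motifs. The Myd88 window held 1 GAAANNGAA and 2 overlapping TATAAA matches. No window of the 7 members held AGAACA. Over 32851 RefSeq promoter windows, 28.3% held GAGGAA, 8.56% GAAANNGAA, 18.97% AGAACA and 13.6% TATAAA. These matches are descriptions of letters only.

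Tlr1 shares transcript sequence with Tlr6, its neighbouring paralogue, and the longest identical run is shown because read pairs that lie wholly inside it cannot be placed. It spans 229 bases inside the longest open reading frame of both transcripts, at bases 1698 to 1926 of ENSMUST00000059349.7 for Tlr1 and 1652 to 1880 of ENSMUST00000062315.8 for Tlr6.
Tlr1 and Tlr6 shared run: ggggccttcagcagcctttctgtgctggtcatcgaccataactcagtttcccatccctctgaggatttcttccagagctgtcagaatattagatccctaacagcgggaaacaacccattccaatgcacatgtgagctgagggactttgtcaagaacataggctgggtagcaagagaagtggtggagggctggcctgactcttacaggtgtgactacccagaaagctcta
Of all words of 100 bases in Tlr1 transcripts (GENCODE M39), 7.58% also occur in Tlr6. Tlr6 itself was measured at 1.06 CPM on average, against 5.49 CPM for Tlr1.

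The 20 libraries held between 14934926 and 20299999 counts on genes, where 3 counts are 0.148 to 0.201 CPM (counts scaled to a common library size). Total counts did not separate the groups in any of the 5 comparisons of groups (two-sided exact permutation test, lowest p = 0.286). Within a group, log2 CPM of any pair of livers correlated at 0.913 to 0.973 across genes. The liver of αACBP + Vehicle replicate 5 had the highest TMM factor, 1.29, and 0 counts of Tlr2, Tlr4, Tlr5, Tlr7, Tlr8 and Tlr9.

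**Figure D1:**
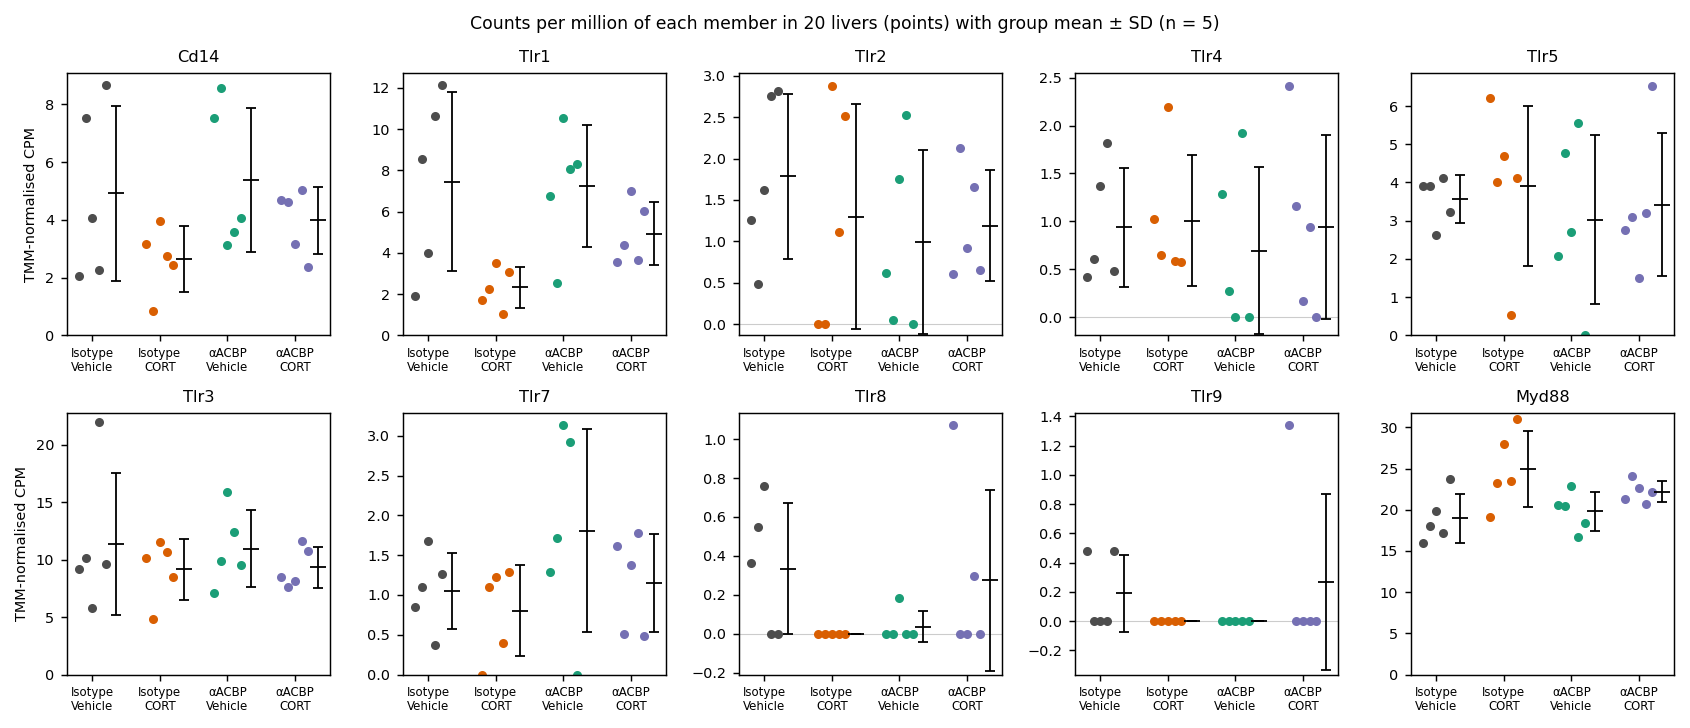
TMM-normalised CPM of the 10 genes (vertical axis, linear) in every liver, as points by group, with the mean and SD of 5 livers beside them. Tlr1 lies between 1.04 and 3.52 CPM in Isotype + CORT and between 3.56 and 6.9998 CPM in αACBP + CORT, and Myd88 lies above 16 CPM in every liver.

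Cd14 (chromosome 18, 36725064 to 36726815, GRCm38.p6) is the surface protein that presents lipopolysaccharide. In Isotype + Vehicle it was measured at 2.05, 7.52, 4.06, 2.25 and 8.69 CPM. In Isotype + CORT the values were 3.14, 0.850, 3.95, 2.74 and 2.45 CPM. Among the CORT livers 1, at 0.850 CPM, lay below the vehicle range and the other 4 lay in its lower part, so that the groups overlapped. In αACBP + Vehicle the values were 7.53, 8.56, 3.14, 3.58 and 4.05 CPM, and in αACBP + CORT 4.70, 4.63, 3.16, 5.02 and 2.38 CPM. The log2 fold change with CORT under isotype was -0.90 (SE 0.46, 95% interval -1.85 to 0.05), which did not pass the test (edgeR quasi-likelihood, adjusted p = 0.355). With αACBP under CORT it was 0.60 (SE 0.46, adjusted p = 0.691).

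Tlr1 (chromosome 5, 64924680 to 64933600, GRCm38.p6) pairs with Tlr2 to bind triacylated lipoproteins. In Isotype + Vehicle it was measured at 1.93, 8.56, 4.01, 10.6 and 12.2 CPM, from 32 to 203 counts. In Isotype + CORT the values were 1.71, 2.25, 3.52, 1.04 and 3.09 CPM. The groups overlapped, since 1 vehicle liver, replicate 1, lay within the CORT range. In αACBP + Vehicle the values were 6.75, 2.51, 10.6, 8.09 and 8.30 CPM, and in αACBP + CORT 3.56, 4.37, 6.9998, 3.66 and 6.05 CPM. Every αACBP + CORT liver lay above every Isotype + CORT liver, although the lowest of the former and the highest of the latter were 3.56 and 3.52 CPM.

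With CORT under isotype the log2 fold change of Tlr1 was -1.68 (SE 0.45, 95% interval -2.60 to -0.75), and it passed both limits (edgeR quasi-likelihood test, adjusted p = 0.0362). Tlr1 CPM in these 2 groups gave p = 0.0397 in a two-sided exact permutation test, unadjusted. The call was lost on leaving out any 1 of 6 livers, namely Isotype + Vehicle replicate 2, 4 or 5 or Isotype + CORT replicate 1, 2 or 4, with log2 fold changes from -1.92 to -1.43 and adjusted p up to 0.120 over the 20 livers left out in turn. It was also lost with limma's voom and with only the 2 groups in the fit, and over the 8 other settings the adjusted p ranged from 0.0102 to 0.281.

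With αACBP under CORT the log2 fold change of Tlr1 was 1.08 (SE 0.45, 95% interval 0.17 to 2.00), and the adjusted p of edgeR was 0.293. The background share of called genes was 0.597% in this comparison, and 3.22% of tested genes had groups that did not overlap. A two-sided exact permutation test of the 5 against 5 livers gave p = 0.00794, the smallest it can give. Groups of 5 that do not overlap always give this value, so it restates the separation and adds no further support. With CORT under αACBP the log2 fold change was -0.55 (SE 0.44, adjusted p = 0.657). The difference between the CORT effects under αACBP and isotype was 1.12 (SE 0.62, adjusted p = 0.555), so that the effects of CORT were not shown to differ. These comparisons share livers and are not independent of each other. Under vehicle, αACBP and isotype livers differed by -0.04 (SE 0.43, 95% interval -0.93 to 0.84).

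**Figure D2:**
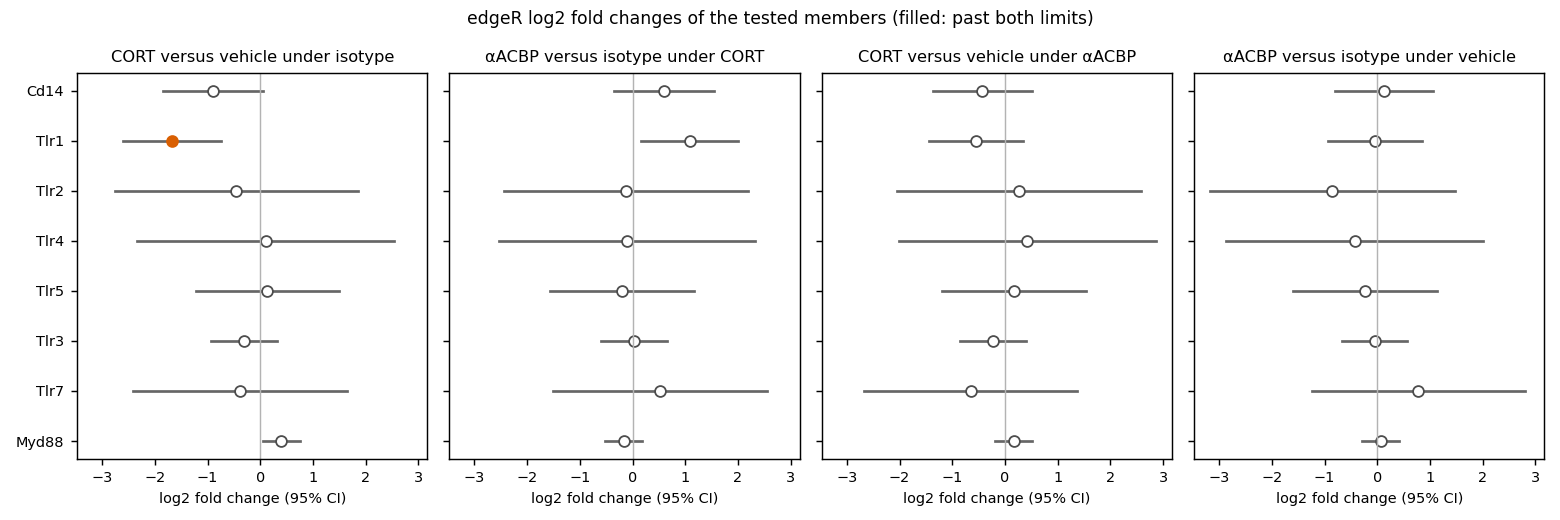
edgeR log2 fold changes (horizontal axis) with 95% intervals for the 8 tested members in 4 comparisons, where a filled point is past both limits. Tlr1 at -1.68 in the left panel is the only filled point, and the intervals of Tlr2, Tlr4 and Tlr7 are the widest.

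Tlr2 (chromosome 3, 83836272 to 83841824) binds lipoproteins as the partner of Tlr1. In Isotype + Vehicle it was measured at 1.26, 0.489, 1.62, 2.75 and 2.82 CPM. In Isotype + CORT the values were 0, 0, 2.88, 1.11 and 2.51 CPM, so that 2 livers held no count and the highest held 54. Livers with and without counts thus occurred in the same group. In αACBP + Vehicle the values were 0.614, 0.0535, 1.75, 2.53 and 0 CPM, and in αACBP + CORT 0.604, 2.12, 0.918, 1.65 and 0.648 CPM. The log2 fold change with CORT under isotype was -0.46 (SE 1.13, adjusted p = 0.919), and the interval from -2.76 to 1.85 holds changes in either direction. Tlr4 (chromosome 4, 66827551 to 66846581), the lipopolysaccharide receptor, was measured between 0.421 and 1.81 CPM in Isotype + Vehicle and between 0.580 and 2.19 CPM in Isotype + CORT. It lay between 0 and 1.93 CPM in αACBP + Vehicle and between 0 and 2.42 CPM in αACBP + CORT, and the 4 groups overlapped. Its log2 fold change with CORT under isotype was 0.10 (SE 1.19, 95% interval -2.33 to 2.53). Tlr5 (chromosome 1, 182954752 to 182976044), the flagellin receptor, was measured between 2.64 and 4.13 CPM in Isotype + Vehicle and between 0.521 and 6.22 CPM in Isotype + CORT. The CORT livers spread to either side of the vehicle livers, and the log2 fold change was 0.13 (SE 0.66, adjusted p = 0.963). The log2 fold changes of Tlr2, Tlr4 and Tlr5 with αACBP under CORT were -0.13 (SE 1.13), -0.11 (SE 1.19) and -0.20 (SE 0.67), and none passed the limits. A transcript on the opposite strand covers 3.35% of Tlr4 exon bases in GENCODE M39.

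Among the endosomal receptors, Tlr3 (chromosome 8, 45395665 to 45411075), which binds double-stranded RNA, was measured most. In Isotype + Vehicle the values were 9.15, 10.1, 5.83, 22.0 and 9.64 CPM, and in Isotype + CORT 10.2, 4.85, 11.6, 10.7 and 8.50 CPM. Apart from 1 vehicle liver at 22.0 CPM, the groups covered much the same range. In αACBP + Vehicle the values were 7.09, 9.90, 15.9, 12.4 and 9.50 CPM, and in αACBP + CORT 8.46, 7.66, 8.15, 11.6 and 10.7 CPM. Its log2 fold change with CORT under isotype was -0.31 (SE 0.30, adjusted p = 0.733), with an interval of -0.93 to 0.32, and with αACBP under CORT it was 0.03 (SE 0.31). In the GENCODE M39 annotation 8.19% of Tlr3 exon bases are covered by a transcript on the opposite strand, and the strand setting of the counting is not named in the sources used here. Tlr7 (chromosome X, 167303380 to 167330574), a sensor of single-stranded RNA, ranged from 0.375 to 1.67 CPM in Isotype + Vehicle, from 0 to 1.29 CPM in Isotype + CORT, from 0 to 3.14 CPM in αACBP + Vehicle and from 0.486 to 1.77 CPM in αACBP + CORT. Its log2 fold change with αACBP under vehicle was 0.78 (SE 0.99, 95% interval -1.24 to 2.80), with CORT under isotype -0.38 (SE 0.99, adjusted p = 0.924) and with αACBP under CORT 0.51 (SE 0.99, adjusted p = 0.927). Of its words of 100 bases, 2.37% occur in transcripts of other genes.

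Tlr8 (chromosome X, 167241123 to 167264329), another sensor of single-stranded RNA, had 0 counts in 14 of 20 livers and 54 counts in all. In Isotype + Vehicle it was measured at 0.361, 0.550, 0.761, 0 and 0 CPM, and in Isotype + CORT it was listed at 0 in all 5 livers. Where a liver had 0 counts, the limit of 3 counts allows up to 0.201 CPM, and no fold change was computed. An exact permutation test of these 2 groups gave p = 0.167. Tlr9 (chromosome 9, 106222598 to 106226876), which binds unmethylated CpG DNA, was listed at 0 in 17 of 20 livers. The livers above 0 were 2 of Isotype + Vehicle, at 0.481 and 0.479 CPM, and 1 of αACBP + CORT, at 1.34 CPM.

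Myd88 (chromosome 9, 119335934 to 119340018), the adaptor of these receptors, was measured at 16.01, 18.04, 19.8, 17.1 and 23.7 CPM in Isotype + Vehicle and at 19.1, 23.3, 28.0, 23.4 and 31.0 CPM in Isotype + CORT. In αACBP + Vehicle the values were 20.5, 20.5, 22.9, 16.7 and 18.4 CPM, and in αACBP + CORT 21.3, 24.1, 22.7, 20.7 and 22.2 CPM. The CORT livers lay toward the upper end in Isotype groups, yet the groups overlapped. The log2 fold change with CORT under isotype was 0.40 (SE 0.17, 95% interval 0.05 to 0.75), and the adjusted p of edgeR was 0.233. A two-sided exact permutation test of its CPM gave p = 0.0556. With αACBP under CORT it was -0.17 (SE 0.17, adjusted p = 0.796). Myd88 and Acaa1a, a peroxisomal thiolase gene measured at 292 CPM on average, overlap on opposite strands in GENCODE M39, where 16.2% of Myd88 exon bases lie in Acaa1a. Because the strand setting of the counting is not named, reads of both genes cannot be told apart there. Acaa1a had a log2 fold change of 0.34 (SE 0.19, adjusted p = 0.410) with CORT under isotype, and its part in the Myd88 values was not tested.

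**Figure D3:**
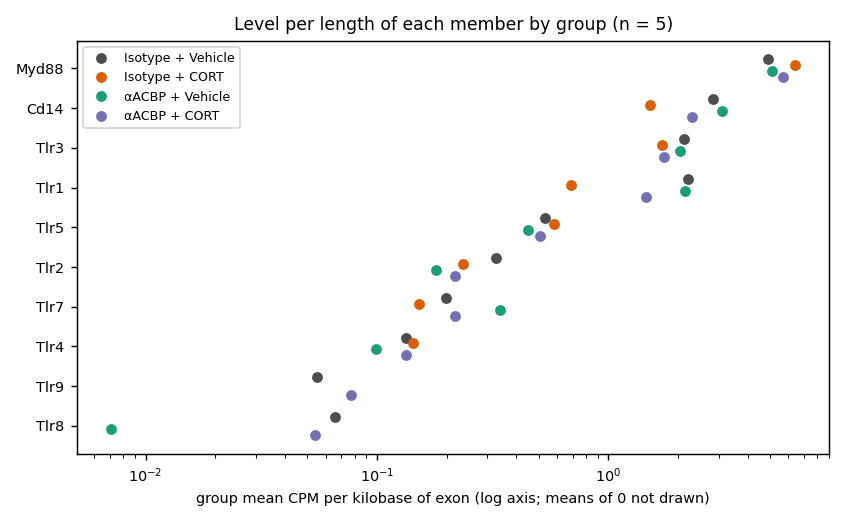
Group means of CPM per kilobase of exon (horizontal log axis, 5 livers per group) for the 10 genes, sorted by the mean of all 20 livers. Myd88 leads at 5.52 CPM per kilobase, and Tlr8 and Tlr9 lie lowest, with groups at 0 not drawn.

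Levels were compared between genes per kilobase of exon, with lengths from GENCODE M39. Over 20 livers Myd88 was measured at 5.52 ± 0.951 (SD) CPM per kilobase, Cd14 at 2.44 ± 1.29, Tlr3 at 1.91 ± 0.686 and Tlr1 at 1.62 ± 0.986. The Myd88 level may include reads of Acaa1a, which covers 16.2% of Myd88 exon bases on the opposite strand. That part was not tested. Cd14, Tlr3 and Tlr1 differ from each other by less than their spread. Tlr5 followed at 0.517 ± 0.252, Tlr2 at 0.239 ± 0.186, Tlr7 at 0.227 ± 0.156 and Tlr4 at 0.128 ± 0.106. The spreads of Tlr2, Tlr7 and Tlr4 overlap. The mean levels of Tlr8 and Tlr9 were 0.0316 and 0.0331 CPM per kilobase. The counts of the members varied within groups far more than counting alone gives, with a variance of 7.53 (Myd88) to 25.0 (Tlr3) times the mean.

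The other genes of the pathway were taken from lists of receptors, chaperones, adaptors, kinases, transcription factors, negative regulators and inflammatory targets. With CORT under isotype, 1 of 9 tested genes that handle ligands or chaperone the receptors was called higher and 1 lower, and 1 of 11 transcription factors was called lower. By edgeR 0 genes were called among 4 other Toll-like receptors, 5 other TIR receptors, 3 adaptors besides Myd88, 14 kinases and ligases, 11 negative regulators and 11 inflammatory targets. At an unadjusted p under 0.05 these lists held 0, 2, 1, 2, 2 and 2 genes in the same order, beside 15.6% of all genes tested. The 9 ligand-handling and chaperone genes held 1 higher and 2 lower at that limit, and the 11 transcription factors 1 higher and 4 lower. Of the other Toll-like receptors, Tlr12 had a log2 fold change of 0.57 (SE 0.45) and Tlr6 of -1.35 (SE 1.15). Il18rap, a chain of the interleukin-18 receptor, stood at -3.34 (SE 1.35, adjusted p = 0.196) and Il1r1, the interleukin-1 receptor, at 0.62 (SE 0.27, adjusted p = 0.229). Ticam1, the adaptor that serves Tlr3, stood at -0.68 (SE 0.25, adjusted p = 0.136) and Tirap, the bridge to Myd88, at -0.12 (SE 0.28). These receptors and adaptors lie on either side of 0. The kinase Ikbke stood at -0.95 (SE 0.28, adjusted p = 0.0581) and Chuk at 0.47 (SE 0.18, adjusted p = 0.178). Among negative regulators Sigirr stood at 0.36 (SE 0.16) and Irak3 at -1.48 (SE 0.69), and the chemokines Cxcl10 and Ccl5 at -1.78 (SE 0.67, adjusted p = 0.151) and -1.54 (SE 0.67, adjusted p = 0.234). The median log2 fold change of the 8 tested members was -0.35, against 0.00 over all genes, and it was -0.35 for the other Toll-like receptors and -0.58 for the inflammatory targets. In the comparison of αACBP with isotype under CORT, 1 of the 9 ligand-handling and chaperone genes was called higher and 1 lower, and 1 of 11 transcription factors higher. The other 6 lists had 0 genes called by edgeR, and at an unadjusted p under 0.05 they held 1 gene, a negative regulator, beside 12.5% of all genes tested. At that limit 2 ligand-handling and chaperone genes were higher and 3 lower, and 5 transcription factors were higher and 1 lower. The members' median was -0.04, against 0.01 over all genes.

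Ly86 encodes MD-1, the partner of the Toll-like receptor homologue Cd180, and it moved in the same direction as Tlr1. It was measured at 5.96, 12.8, 5.78, 6.57 and 10.3 CPM in Isotype + Vehicle and at 1.78, 2.05, 2.14, 1.69 and 3.28 CPM in Isotype + CORT, with no overlap. In αACBP + Vehicle it lay between 1.87 and 6.33 CPM, and in αACBP + CORT between 3.56 and 9.26 CPM, above every Isotype + CORT liver. Of all genes tested, 5.04% had groups that did not overlap with CORT under isotype, and 3.22% with αACBP under CORT. Ly86 is named because it passed both limits in these comparisons, so its separation adds no further support. Ly86 fell by 1.92 on the log2 scale with CORT under isotype (SE 0.39, edgeR adjusted p = 0.00501) and was 1.52 higher with αACBP under CORT (SE 0.38, adjusted p = 0.0492). Irf7, a transcription factor of interferon induction downstream of Tlr7 and Tlr9, was measured between 56.5 and 109 CPM in Isotype + Vehicle and between 18.2 and 65.6 CPM in Isotype + CORT. Only 1 CORT liver reached the vehicle range. Irf7 lay between 103 and 126 CPM in αACBP + Vehicle, toward and above the upper end of Isotype + Vehicle. In αACBP + CORT it lay between 68.7 and 115 CPM. Irf7 fell by 1.24 with CORT (SE 0.25, adjusted p = 0.00477) and was 1.49 higher with αACBP under CORT (SE 0.25, adjusted p = 0.00275). Cd36, a scavenger receptor that serves Tlr2 with ligands and also imports fatty acids, moved the other way. It was measured between 29.1 and 45.3 CPM in Isotype + Vehicle, between 72.4 and 209 CPM in Isotype + CORT and between 37.3 and 79.2 CPM in αACBP + CORT. In αACBP + Vehicle it lay between 21.8 and 38.4 CPM, toward and below the lower end of Isotype + Vehicle. Its log2 fold change was 1.68 with CORT (SE 0.24, adjusted p = 0.000291) and -1.08 with αACBP under CORT (SE 0.23, adjusted p = 0.0173). Unc93b1, which carries endosomal receptors to their compartment, had a log2 fold change of 0.92 with αACBP under CORT (SE 0.18, adjusted p = 0.00948), past the adjusted limit but below the fold limit, and it was chosen for mention after its values were seen. With CORT under αACBP, Cd36 was the only pathway gene called, at 1.14 (SE 0.24, adjusted p = 0.0291).

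**Figure D4:**
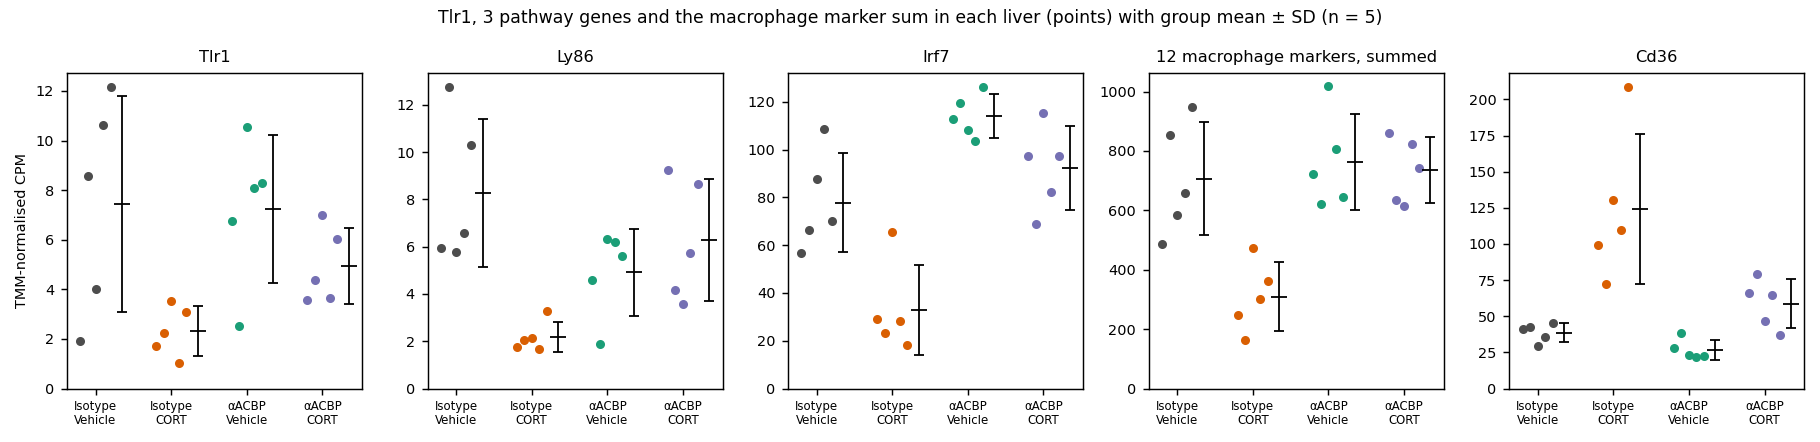
TMM-normalised CPM (vertical axes, linear) of Tlr1, Ly86, Irf7, the sum of 12 macrophage markers and Cd36 in every liver, with group mean and SD of 5 livers. Isotype + CORT is the lowest group in the first 4 panels and the highest in the Cd36 panel, and the macrophage sum is 164 to 472 CPM there.

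Of all genes tested, 1.94% were called with CORT under isotype and 0.597% with αACBP under CORT. The shares at an unadjusted p under 0.05 were 15.6% and 12.5%. All 12 markers of Kupffer cells and macrophages had negative log2 fold changes with CORT under isotype, as Tlr1 did, and 7 of them passed both limits, among them Clec4f (-1.01, adjusted p = 0.0150), the colony-stimulating factor receptor Csf1r (-1.02, adjusted p = 0.00455), C1qa (-1.40, adjusted p = 0.00182) and C1qc (-1.83, adjusted p = 0.0121), by edgeR. Their sum ranged from 488 to 947 CPM in Isotype + Vehicle, from 164 to 472 CPM in Isotype + CORT, from 620 to 1019 CPM in αACBP + Vehicle and from 615 to 861 CPM in αACBP + CORT, and no marker was at 0 in any group. The sum in Isotype + CORT overlapped no other group. With αACBP under CORT all 12 had positive log2 fold changes and 3 passed both limits, Clec4f at 1.42 (SE 0.24, adjusted p = 0.00275), C1qa at 1.24 (SE 0.25, adjusted p = 0.0116) and Csf1r at 1.07 (SE 0.20, adjusted p = 0.0072). The median log2 fold changes of these markers were -1.19 and 1.05, beside -1.68 and 1.08 for Tlr1. Lymphocyte lists moved the same way. With CORT under isotype the B cell markers had a median of -2.12 and the T and NK cell markers -1.96. With αACBP under CORT these medians were 0.68 and 1.58. Of the other cell types, 0 of 6 monocyte markers were called by edgeR with CORT, at a median of -1.39 and with 3 at an unadjusted p under 0.05, led by Lyz2 (-1.82, adjusted p = 0.0607) and Fcgr4 (-1.88, adjusted p = 0.0856). Their sum ranged from 44.5 to 187 CPM in Isotype + Vehicle and from 15.3 to 51.8 CPM in Isotype + CORT. Of 3 tested neutrophil markers Csf3r was called lower (-1.08, adjusted p = 0.0268). Dendritic cell markers had 0 of 7 called and 3 at an unadjusted p under 0.05, with Bst2 at -0.78 (adjusted p = 0.0106) and Siglech at -3.63 (adjusted p = 0.0965). Sinusoidal endothelial markers had a median of -0.29 and 0 of 7 called, with Pecam1 at -0.93 (adjusted p = 0.0463) and Kdr at -0.35, and stellate markers a median of -0.31 and 0 of 6 called, with Pdgfrb at -0.92 (adjusted p = 0.0664) and Colec11 at -0.34. Cholangiocyte and hepatocyte markers had 0 of 5 and 0 of 6 called, and 0 and 0 at an unadjusted p under 0.05, at medians of -0.33 and -0.16. Of the hepatocyte markers 3 were positive, with Alb at 0.19, and 3 negative, with Ass1 at -0.62, and of the cholangiocyte markers 4 were negative, with Epcam at -0.95, and Krt19 stood at 0.08. The summed hepatocyte markers lay between 36617 and 134946 CPM in all livers. The part of macrophages or of any other cell type in the Tlr1 values was not tested.

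**Figure D5:**
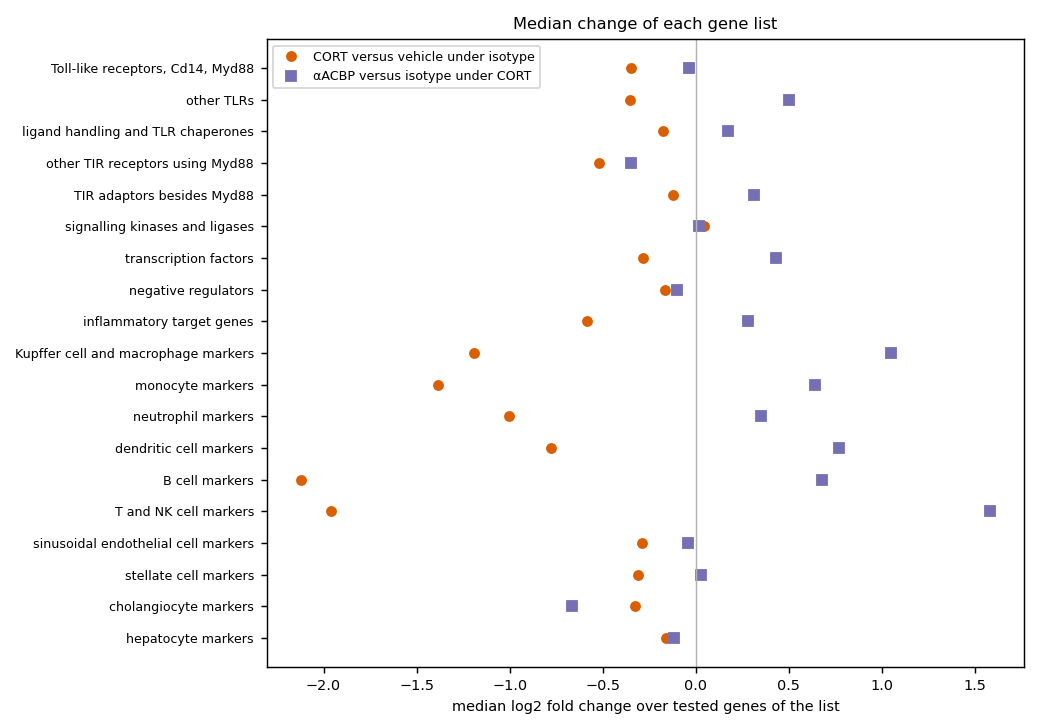
Median log2 fold change (horizontal axis) over the tested genes of each list, with circles for CORT versus vehicle under isotype and squares for αACBP versus isotype under CORT. The members lie at -0.35 and -0.04, and the macrophage markers at -1.19 and 1.05.

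The genes whose log2 CPM followed a member most closely over 20 livers were named as a description, with Pearson's r among 12065 genes, in which treatment groups and library properties are shared. For Tlr1 they were Ptgs1 (r = 0.84), Pik3cd (r = 0.84) and Ckb (r = 0.83), and for Cd14 Carns1, Aif1 and Fcgr4 (r = 0.75 each). Aif1 and Fcgr4 are genes of macrophages and monocytes. With group means removed, r was 0.68 for Carns1, 0.70 for Aif1 and 0.76 for Fcgr4. As these genes were picked as the highest of 12065, their r is high in part by selection, and no chance level was computed. For Myd88 they were Reep6 (r = 0.79), Vrk3 (r = 0.76) and Acot11 (r = 0.74), and for Tlr3 Tcaf2 (r = 0.77), Atg13 (r = 0.69) and Prom1 (r = 0.68). For Tlr2 Morn2 led (r = 0.80), followed by the inflammasome gene Nlrp3 (r = 0.79) and Zc3h7b (r = 0.78). For Tlr5 they were mt-Nd4l (r = 0.84), Efemp2 (r = 0.84) and mt-Nd5 (r = 0.81), and for Tlr7 Arntl2 (r = 0.81), Slc25a14 (r = 0.78) and Ccnk (r = 0.77).

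With CORT under αACBP 0 of the 8 tested members were called by edgeR, against a background of 0.212%, and 0 had an unadjusted p under 0.05, beside 12.7% of all genes. With αACBP under vehicle 0 of 8 were called, against 1.3%, and 0 had an unadjusted p under 0.05, beside 20.6%. Between αACBP + CORT and Isotype + Vehicle 0 of 8 were called, against 0.0684%, with 0 at an unadjusted p under 0.05, beside 7.59%. In the interaction 0 of 8 were called, against 0.143%, with 0 at an unadjusted p under 0.05, beside 10.6%. By voom 0 members were called in these comparisons. DESeq2 gave no adjusted p for 6, 4, 3 and 6 of the 8 members in the same order, and called 0 of the others.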

How the data were processed

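The authors aligned the read pairs of 20 livers with HISAT2, assigned them to genes with HTSeq-count (union mode, pairs on several features included), and deposited these counts without normalization. The labels name mm10 and the paper's methods GRCm39. Positions and promoters printed here are RefSeq GRCm38.p6, and exon lengths, overlaps and shared words are from GENCODE M39. Lines of the table for pairs counted on no gene stayed out of library sizes. They held between 42.3% and 45.2% of pairs as pairs on no feature. All columns were assigned to a liver by name.

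Values were computed in R 4.3.3 with the quasi-likelihood test of edgeR 4.0.16 (TMM, its filter on low counts, robust estimation) in 1 model of 4 groups, with Benjamini-Hochberg adjustment over 16071 genes. CPM are TMM-normalised. Called means past both limits, 0.05 for the adjusted p and 1 for the size of the log2 fold change. Tlr8 and Tlr9, left out by the filter, were compared by exact permutation of the livers, two-sided, with 0.00794 as the lowest p possible. The same test is given, unadjusted, for total counts and beside edgeR for Tlr1 and Myd88. Totals of 14934926 to 20299999 put 3 counts at 0.148 to 0.201 CPM, which covers counting error only. Nothing in the labels pairs livers across groups: same-numbered livers are different mice. Labels call the livers biological replicates.

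The members and the lists were chosen with earlier results of these data known. The members are all named, and of each list the genes past both limits with CORT under isotype or with αACBP under CORT, up to 4 by p, or else the 2 with the smallest p. Likeness used log2 (CPM + 0.5) and genes of 1 CPM or more on average, leaving aside predicted genes, pseudogenes and receptor segments. Alternatives were the Wald test and, apart from it, the size factors of DESeq2 1.42.0, voom of limma 3.58.1 with quality weights, other filters, library sizes, call rules and samples, a replicate block and each liver left out. The programs were tested on simulated counts.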

Additional observations from a re-analysis of the deposited data

Results flagged for a closer look

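In 5 of 41 sets of 5 livers looked at, 1 liver lay far from the other 4 by Dixon's criterion. Chance flags about 1 of 20 sets of normally distributed values, a rate that does not hold for counts near 0. The number of flagged sets is therefore not read against it. For Tlr3 in Isotype + Vehicle the highest liver had 22.0 CPM, against 5.83 to 10.1 CPM in the others. For Tlr4 in Isotype + CORT it had 2.19 CPM, against 0.580 to 1.03 CPM. The other sets have livers at 0 counts, and where 4 livers are at 0 any count in the remaining liver is flagged. Tlr8 was at 0.181 CPM in 1 liver of αACBP + Vehicle, and at 1.07 CPM in 1 liver of αACBP + CORT, where another had 0.296 CPM. Tlr9 was at 1.34 CPM in 1 liver of αACBP + CORT. The liver of αACBP + CORT with the most Tlr8 and the liver with the most Tlr9 are the same, replicate 1.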

How the results depend on the processing

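Of the log2 fold changes of single members, 229 of 240 under the 8 other settings and 600 of 640 on leaving out 1 liver kept their direction and their side of the limits. For 10 of the 229 DESeq2 gave no adjusted p, so that only the direction could be compared. The number of members called with CORT under isotype, 1 (Tlr1), became 0 with voom and quality weights and 0 with only the groups compared, and it ranged from 0 to 1 on leaving out 1 liver. With αACBP under CORT it became 1 (Tlr1) under unadjusted p. The cause was not tested. Signs turned with voom for Tlr3 0.0276 (CORT under isotype), Tlr5 -0.54 (CORT under isotype), Tlr2 1.26 (αACBP under CORT), Tlr5 0.32 (αACBP under CORT), Tlr1 0.17 (αACBP under vehicle), Tlr3 0.32 (αACBP under vehicle), Cd14 -0.0143 (αACBP under vehicle), and with the replicate block for Tlr2 0.81 (αACBP under CORT), Tlr3 0.000815 (αACBP under vehicle). On leaving out 1 liver the signs of members far from the limits also turned. For CORT under isotype these were Tlr3 from -0.48 to 0.0741, Tlr4 from -0.40 to 0.47 and Tlr5 from -0.0932 to 0.42. For CORT under αACBP these were Tlr2 from -0.0594 to 0.98, Tlr4 from -0.29 to 1.26 and Tlr5 from -0.20 to 0.52. For αACBP under CORT these were Tlr2 from -0.45 to 0.40, Tlr3 from -0.13 to 0.13, Tlr4 from -0.82 to 0.40 and Tlr5 from -0.57 to 0.0319. For αACBP under vehicle these were Cd14 from -0.11 to 0.43, Tlr1 from -0.29 to 0.20, Tlr3 from -0.22 to 0.33 and Tlr5 from -0.58 to 0.0767.

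With the replicate block Tlr1 stayed past both limits with CORT under isotype (-1.66, adjusted p = 0.0484), and the count of called members was 1 there and 0 in the other comparisons. Same-numbered livers deviated together with correlations from -0.139 to 0.138, which shows no large shared part but cannot exclude a small one. Counts of at least 10 in every liver left out Tlr2, Tlr4, Tlr5 and Tlr7. Below about 2 CPM, members had standard errors of 0.99 or more on the log2 scale with CORT under isotype, so that changes of a few-fold were not detectable at this depth and spread.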

Other observations

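Markers of lymphocytes, outside the Toll-like receptor pathway, were also read with CORT under isotype. The sum of 6 B cell markers ranged from 21.5 to 41.6 CPM in Isotype + Vehicle and from 2.19 to 14.4 CPM in Isotype + CORT. In αACBP + CORT it ranged from 5.08 to 35.3 CPM. The medians were 27.1, 5.85 and 8.93 CPM in the same order. All 6 B cell markers had negative log2 fold changes with CORT under isotype. Cd22, a B cell inhibitory receptor, passed both limits (-2.41, SE 0.59, edgeR adjusted p = 0.0224). With CORT under αACBP all 6 were negative as well, at a median of -1.18. There 0 were called by edgeR and 2 had an unadjusted p under 0.05, beside 12.7% of all genes tested. The sum of 8 T and NK cell markers ranged from 6.48 to 12.3 CPM in Isotype + Vehicle and from 0.0644 to 3.39 CPM in Isotype + CORT, and from 2.81 to 6.71 CPM in αACBP + CORT. With CORT under isotype the T and NK cell list had 0 of 6 tested markers called by edgeR. At an unadjusted p under 0.05 it held 2 of 6, beside 15.6% of all genes tested. Cd3d stood at -4.41 (SE 1.63, adjusted p = 0.146) and Cd3g at -2.45 (SE 1.18, adjusted p = 0.313). In αACBP + CORT against Isotype + CORT, 6 of 6 tested T and NK cell markers and 4 of 6 B cell markers had positive log2 fold changes, at medians of 1.58 and 0.68, with 0 called by edgeR in either list and 1 in each at an unadjusted p under 0.05. Of all genes tested, 12.5% lay under that limit in this comparison.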
